A study of Homo sapiens with 6 samples.

Results

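The expression of 10 tubulin genes was examined in RKO, a human cell line established from a colorectal carcinoma, among the 58735 genes of the table. These were the alpha-tubulin genes TUBA1A, TUBA1B, TUBA1C and TUBA4A, the beta-tubulin genes TUBB, TUBB2A, TUBB3, TUBB4B and TUBB6, and the gamma-tubulin gene TUBG1. The genes were listed by name but chosen by their FPKM in these 6 libraries, with LOC_OE replicate 1 seen apart from the others, so their difference between the groups is described here and not tested. RNA sequencing covered 3 libraries of the vector control (Vector) and 3 libraries of the line that overexpresses the long non-coding RNA LOC101927668 (LOC_OE). Per the study's methods, stable lines were made with a lentiviral vector carrying the full-length transcript or with the empty vector, under puromycin selection. Whether a line came from 1 clone, and whether the libraries of a group came from separate cultures, is not given in the sources used here, so p-values measure only the spread between these libraries.

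Alpha-tubulin and beta-tubulin proteins pair into the heterodimers that polymerize into microtubules, which carry intracellular transport and build the mitotic spindle, and gamma-tubulin sits in the ring complexes from which microtubules grow. The alpha and beta isotypes are encoded by separate genes with very similar coding sequences, and they differ most in the acidic tail at the C terminus. Cells also sense their own pool of tubulin dimers. When free dimers are in excess, the protein TTC5 binds the first residues of tubulin chains emerging from the ribosome and recruits, through SCAPER, the CCR4-NOT deadenylase that destroys the mRNA.

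The first 4 codons encode the residues that TTC5 reads, so the first 30 coding bases are shown with these codons in capitals. TUBA1A, TUBA1B and TUBA1C shared the same 30 bases.
TUBA1A, TUBA1B and TUBA1C: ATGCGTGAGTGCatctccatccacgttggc
TUBA4A: ATGCGTGAATGCatctcagtccacgtgggg
TUBB: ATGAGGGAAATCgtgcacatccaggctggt
TUBB2A: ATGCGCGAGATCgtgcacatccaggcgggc
TUBB3: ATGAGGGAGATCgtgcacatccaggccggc
TUBB4B: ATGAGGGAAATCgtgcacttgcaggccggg
TUBB6: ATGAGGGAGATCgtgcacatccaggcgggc
TUBG1: ATGCCGAGGGAAatcatcaccctacagttg
In the alpha and beta genes the capitals are synonymous within each class, and TUBG1 begins differently. The last 30 coding bases of 8 of the genes, with the stop codon in capitals, are shown because they encode the end of the tail, where the isotypes diverge.
TUBA1C: gacggagaggatgagggtgaagagtatTAA
TUBA4A: tatgaggacgaggatgagggagaagaaTAA
TUBB: ttcggtgaggaggccgaagaggaggccTAA
TUBB2A: gaggaggaggagggcgaggacgaggctTAA
TUBB3: gaggagtcggaggcccagggccccaagTGA
TUBB4B: gaggaggaggctgaggaggaggtggccTAG
TUBB6: gaggatgaggaagaggagatcgatggaTAG
TUBG1: tacatctcctggggcacccaggagcagTGA
The codon before the stop was tat, a tyrosine codon, in TUBA1C and gaa in TUBA4A. This last tyrosine of alpha-tubulin is removed and put back by dedicated enzymes, among them the ligase TTL. The sequences are those of GENCODE version 29 transcripts on GRCh38, in which the coding sequences were 1335 to 1356 bases long.

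The similarity of these genes bears on their counts. TUBA1B and TUBA1C were identical at 97.3% of aligned coding bases, TUBA1A and TUBA1B at 97.2%, and the closest beta pair, TUBB2A and TUBB3, at 88.7%. Of all stretches of 150 bases in the annotated transcripts, 3.46% of those of TUBA1A, 6.43% of those of TUBA1B and 3.84% of those of TUBA1C occurred in another gene as well. This share was 0% for TUBA4A, TUBB4B and TUBB6, 1.80% for TUBB and 3.47% for TUBG1. It was 41.4% for TUBB2A, mostly shared with TUBB2B, and 27.5% for TUBB3, shared with a read-through gene annotated over it (AC092143.1). The level of TUBB2A is therefore uncertain to the extent that reads of TUBB2B were counted on it, and TUBB2B was listed at only 0.171 to 0.797 FPKM.
TUBA1A and TUBA1C also overlap at their 5′ ends on opposite strands of chromosome 12, over 490 exon bases (14.3% of TUBA1A). Exons of AFG3L2, a gene at 14.1 to 20.5 FPKM, cover 20.3% of TUBB6 on the opposite strand. The strand setting of the counting is not given in the sources used here, so reads of such partners cannot be told apart.

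FPKM, the number of fragments on a gene scaled by the length of its exons and by a divisor for each library, allows levels of different genes to be compared. The libraries held 15008842 to 18410231 reads on genes, the most in LOC_OE replicate 1. The divisor recovered from the values did not follow these totals. It was 1.86e+07 to 1.88e+07 reads in Vector and 1.60e+07, 1.60e+07 and 1.47e+07 in LOC_OE. The deposited scaling thus raised FPKM per read in every LOC_OE library relative to Vector, and how it was made is not given in the sources used here. LOC101927668 (ENSG00000243004, chromosome 7 from 19918981 to 20140453, minus strand) had at most 1 read in a Vector library and 231 to 276 reads in the LOC_OE libraries. Across genes, LOC_OE replicate 1 stood apart, with Pearson correlations of log2(FPKM + 1) of 0.967 and 0.962 with replicates 2 and 3, which had 0.982 with each other. It is therefore shown separately. Of 8 epithelial and intestinal markers, EPCAM, KRT8, KRT18 and CDX2 passed a filter on low FPKM (at least 0.5 in at least 3 libraries). The defining epithelial cadherin gene CDH1 was listed at 0 in every library, and KRT19, KRT20 and VIL1 were at or near 0. The leukocyte marker PTPRC, the endothelial marker PECAM1 and the fibroblast markers COL1A1 and COL3A1 were at or near 0, and ACTA2 is described with the minor isotypes.

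In control cells the 10 genes spanned from 344 ± 22.5 FPKM for TUBB4B to 0.597 ± 0.0545 FPKM for TUBB3 (mean ± SD, n = 3 libraries). The order of the mean levels was TUBB4B, TUBB, TUBA1B, TUBA1C, TUBA1A, TUBG1, TUBA4A, TUBB2A, TUBB6 and TUBB3. Of the neighbours in this order, TUBA1A (25.05 to 29.4 FPKM) and TUBG1 (24.3 to 26.5 FPKM) overlapped over the Vector libraries, and the other neighbours did not. Each gene was steady among the control libraries. The SD was between 4.51% of the mean for TUBG1 and 12.4% for TUBB6.

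**Figure D1:**
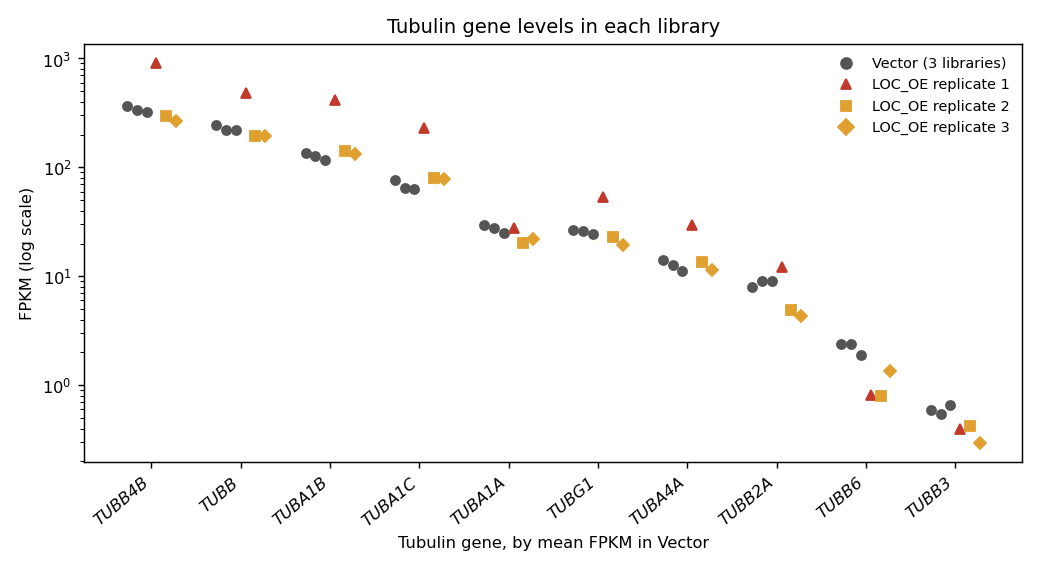
FPKM of each tubulin gene in each library (vertical log axis), with genes ordered by their mean level in Vector, grey circles for Vector, red triangles for LOC_OE replicate 1, and orange squares and diamonds for LOC_OE replicates 2 and 3. The red triangle stands above all other points for 7 genes, and for TUBB6 and TUBB3 every LOC_OE point lies below every Vector point.

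TUBB4B, a beta isotype found in most tissues, was the most abundant tubulin gene in every library. It is on chromosome 9 (137241213 to 137243707, plus strand). Its FPKM was 369, 338 and 325 in Vector and 909, 299 and 269 in LOC_OE. LOC_OE replicate 1 lay above every control library, while replicates 2 and 3 lay below every control library. TUBB4B was 3.20-fold higher in replicate 1 than in the mean of replicates 2 and 3.
TUBB, the main beta isotype of dividing cells, is on chromosome 6 (30720201 to 30725426, plus strand). It had 243, 219 and 219.8 FPKM in Vector and 478, 193 and 193 FPKM in LOC_OE. The arrangement was that of TUBB4B, with replicate 1 above and replicates 2 and 3 below all control libraries.
TUBG1, the gamma-tubulin gene used in most cells, is on chromosome 17 (42609676 to 42615234, plus strand). Its FPKM was 26.5, 26.1 and 24.3 in Vector and 53.1, 22.8 and 19.5 in LOC_OE. Again replicate 1 was the highest library and replicates 2 and 3 were the lowest.

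TUBA1B, the most abundant alpha isotype here, is on chromosome 12 (49127782 to 49131397, minus strand). It had 136, 126 and 118 FPKM in Vector and 419, 140 and 133 FPKM in LOC_OE. Replicate 1 was 3.07-fold above the mean of replicates 2 and 3, and only replicate 3 lay within the control range.
TUBA1C lies in the same cluster (chromosome 12, 49188736 to 49274603, plus strand). Its FPKM was 76.1, 65.4 and 63.6 in Vector and 228, 79.4 and 77.8 in LOC_OE. By FPKM it was the only member above every control library in all LOC_OE libraries, by 1.15-fold over the Vector mean in replicates 2 and 3. The sum of FPKM over all genes was 264150 to 280648 in Vector and 305702 to 360434 in LOC_OE. As a share of this sum, TUBA1C in replicates 2 and 3 was below Vector replicate 1, so the groups overlapped.
TUBA4A, the alpha isotype whose coding sequence ends without a tyrosine codon, is on chromosome 2 (219249711 to 219278170, minus strand). It had 14.05, 12.7 and 11.1 FPKM in Vector and 29.7, 13.6 and 11.5 FPKM in LOC_OE. Replicates 2 and 3 fell within the control range.

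TUBA1A, the alpha isotype that predominates in developing neurons, did not share this pattern (chromosome 12, 49184796 to 49189324, minus strand). Its FPKM was 29.4, 28.1 and 25.05 in Vector and 27.7, 20.2 and 22.2 in LOC_OE. Replicate 1 lay within the control range, and replicates 2 and 3 lay below it.
TUBB2A, a beta isotype abundant in nerve cells, is on chromosome 6 (3153669 to 3157526, minus strand). It had 7.90, 9.14 and 9.03 FPKM in Vector and 12.2, 4.87 and 4.30 FPKM in LOC_OE, from 109 to 337 reads a library. In replicates 2 and 3 it stood at 0.528 of the Vector mean, while replicate 1 was above all control libraries.
TUBB6, a widely expressed minor beta isotype, is on chromosome 18 (12307669 to 12344320, plus strand). Its FPKM was 2.37, 2.39 and 1.91 in Vector and 0.804, 0.788 and 1.36 in LOC_OE, from 52 to 183 reads a library. All LOC_OE libraries were below all control libraries, and replicate 1 was close to replicate 2.
TUBB3, the beta isotype used as a neuronal marker, is on chromosome 16 (89921392 to 89938761, plus strand). It had 0.589, 0.547 and 0.655 FPKM in Vector and 0.395, 0.422 and 0.292 FPKM in LOC_OE, from only 19 to 54 reads a library. It passed the filter on low FPKM through the Vector libraries alone, in which it was higher.

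Fold changes from limma, a linear model fitted across all 16061 genes that passed the filter, are on the log2(FPKM + 1) scale, which understates the change of low genes. With all libraries the log2 fold change of LOC_OE over Vector was 0.71 for TUBA1C (standard error 0.41), 0.65 for TUBA1B (0.43), 0.39 for TUBA4A (0.33), 0.28 for TUBB4B (0.45), 0.20 for TUBB (0.35) and 0.16 for TUBG1 (0.35). It was −0.22 for TUBB3 (standard error 0.12), −0.23 for TUBA1A (0.13), −0.38 for TUBB2A (0.34) and −0.71 for TUBB6 (0.15). The standard errors of the 7 genes that were highest in LOC_OE replicate 1 were between 0.33 and 0.45. By non-overlap of the libraries, 1 member (TUBA1C) was higher, against 24.4% of all tested genes, and 2 (TUBB3 and TUBB6) were lower, against 20.9% (3 members and 45.3% in either direction). The median log2 fold change of the 10 genes was 0.18, and that of all tested genes was 0.02.

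Without LOC_OE replicate 1 the value was lower for every member but TUBB6, and the standard error was smaller for every member but TUBB3 and TUBB6. The log2 fold change was −0.27 for TUBB4B (standard error 0.081), −0.23 for TUBB (0.064), −0.27 for TUBG1 (0.079), −0.79 for TUBB2A (0.086), −0.36 for TUBA1A (0.081) and −0.65 for TUBB6 (0.15). TUBA1C was at 0.20 (standard error 0.084), TUBA1B at 0.11 (0.071), TUBA4A at −0.01 (0.11) and TUBB3 at −0.24 (0.14). In this comparison 7 members lay below all control libraries, against 29.2% of all tested genes, and 1 member lay above them, against 32.4%. The median of the 10 genes was −0.25, and that of all tested genes was 0.01. Since the list was chosen with these values known, these counts describe the members and support nothing.
The direction of several members thus depended on replicate 1. TUBB, TUBG1 and TUBB4B were above 0 with all libraries and below 0 without it, and TUBA4A went from 0.39 to −0.01. Rescaling each library to the same sum of FPKM moved the median of all tested genes to −0.18, and on that scale TUBB and TUBG1 also turned below 0. TUBA1B and TUBA1C stayed above 0, and TUBA1A, TUBB2A, TUBB3 and TUBB6 stayed below 0, in every alternative that gave a value.

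**Figure D2:**
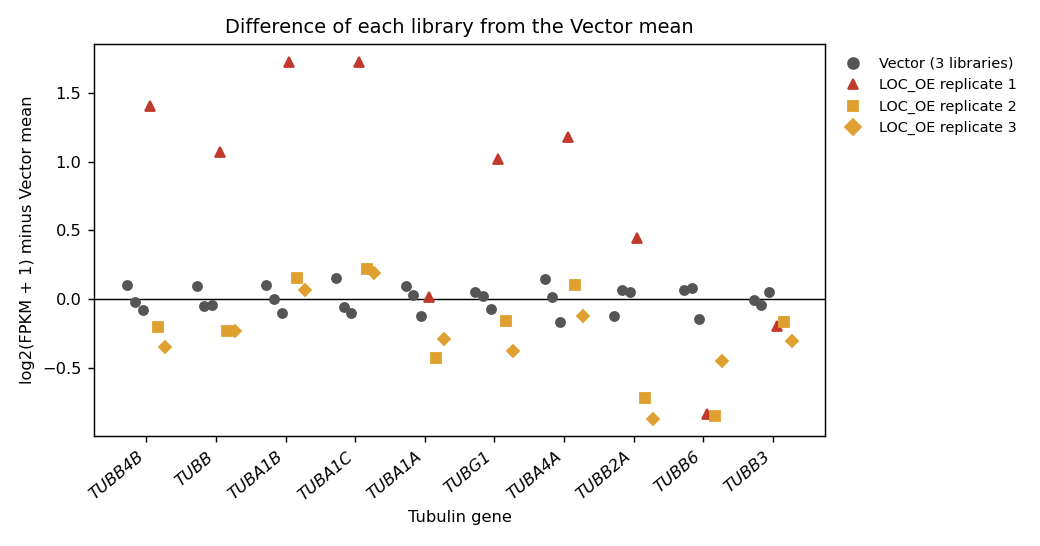
Difference of each library from the mean of the Vector libraries, in log2(FPKM + 1), for each tubulin gene, with grey circles for Vector, red triangles for LOC_OE replicate 1, and orange squares and diamonds for replicates 2 and 3. For TUBA1B and TUBA1C replicate 1 lies 1.72 and 1.73 above the line, for TUBB4B 1.40, while for TUBB6 it lies 0.83 below.

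The distance of LOC_OE replicate 1 from the mean of replicates 2 and 3 was set against the same distance of all tested genes. It was 1.68 on the log2(FPKM + 1) scale for TUBB4B, a distance reached by 20 of the 16061 genes with TUBB4B among them. For TUBA1B it was 1.61 (24 genes at or above) and for TUBA1C 1.52 (34 genes). TUBB at 1.302, TUBG1 at 1.29, TUBB2A at 1.24 and TUBA4A at 1.18 were reached by 77, 81, 103 and 137 genes. These 7 members were at least 2-fold higher in replicate 1, against 1.91% of all tested genes, and in each of them replicate 1 was the highest of the 6 libraries, against 33.4%. The members were chosen with replicate 1 seen apart, so these counts are a description. Of the other members, TUBA1A had a distance of 0.37, TUBB3 of 0.04 and TUBB6 of −0.19, where the range from the 5th to the 95th percentile of all tested genes was −0.71 to 0.78. The largest distance of a Vector library from the mean of the remaining Vector libraries was 0.25 over the members. In bulk RNA, more tubulin mRNA in each cell and more cells with a high level cannot be told apart.

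**Figure D3:**
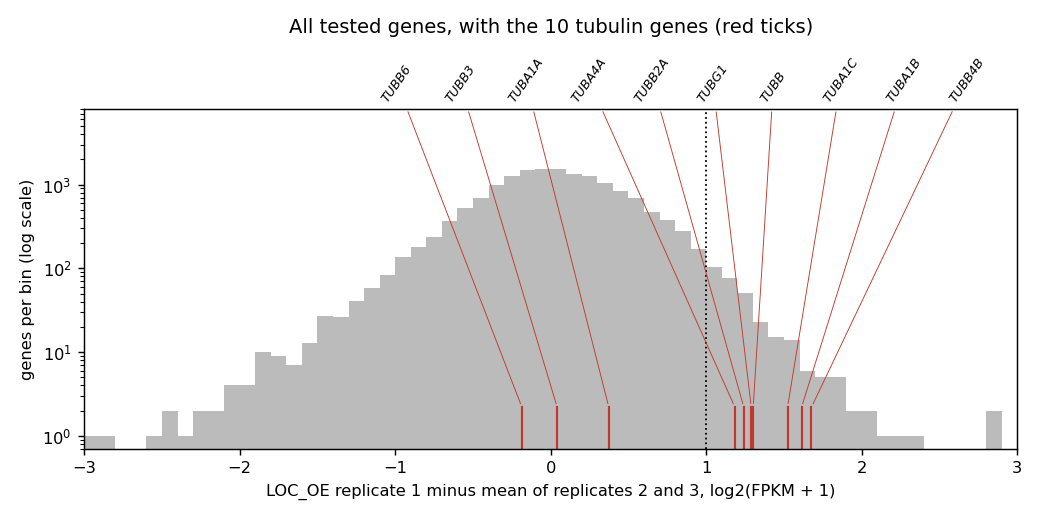
Histogram of the distance of LOC_OE replicate 1 from the mean of LOC_OE replicates 2 and 3 in log2(FPKM + 1), for 16061 tested genes (counts on a log axis), with red ticks for the tubulin genes and a dotted line at a 2-fold distance. The ticks of 7 genes lie between 1.18 and 1.68, and those of TUBA1A, TUBB3 and TUBB6 lie between −0.19 and 0.37.

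Levels per length can be added, which gives mRNA pools of the alpha and of the beta members. Tubulin protein was not measured, and the other alpha and beta genes described below are not in these sums. The 4 alpha genes summed to 255, 232 and 218 FPKM in Vector and to 705, 254 and 244 FPKM in LOC_OE. The 5 beta genes summed to 623, 569 and 556 FPKM in Vector and to 1401, 498 and 468 FPKM in LOC_OE. In replicate 1 the alpha pool was 2.997-fold and the beta pool 2.40-fold the Vector mean. In replicates 2 and 3 the alpha pool was at 1.06 and the beta pool at 0.830 of the Vector mean. Once the FPKM totals were made equal, the alpha pool of replicates 2 and 3 was at 0.932 and the beta pool at 0.730. On that scale the pools of replicate 1 were 2.25-fold and 1.81-fold the Vector mean. The side of the Vector mean on which the alpha pool of replicates 2 and 3 lay thus depended on the scaling. Of the FPKM of all genes, the alpha and beta members made up 0.293% to 0.313% in Vector and 0.584%, 0.243% and 0.233% in the LOC_OE libraries in the order of their numbers.
The balance between the pools differed between the groups in the same way in all LOC_OE libraries. The ratio of alpha to beta FPKM was 0.410, 0.409 and 0.392 in Vector and 0.503, 0.509 and 0.521 in LOC_OE. The groups did not overlap, at 0.403 ± 0.0100 and 0.511 ± 0.00909 (mean ± SD, n = 3 libraries each). Being a ratio within a library, it does not depend on how the libraries were scaled, and on the log2 scale the difference was 0.34 with all libraries and 0.35 without LOC_OE replicate 1. The ratio is given as a description, since the members were chosen with these values known and no background was computed for such ratios. It does not show which of the pools changed.

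**Figure D4:**
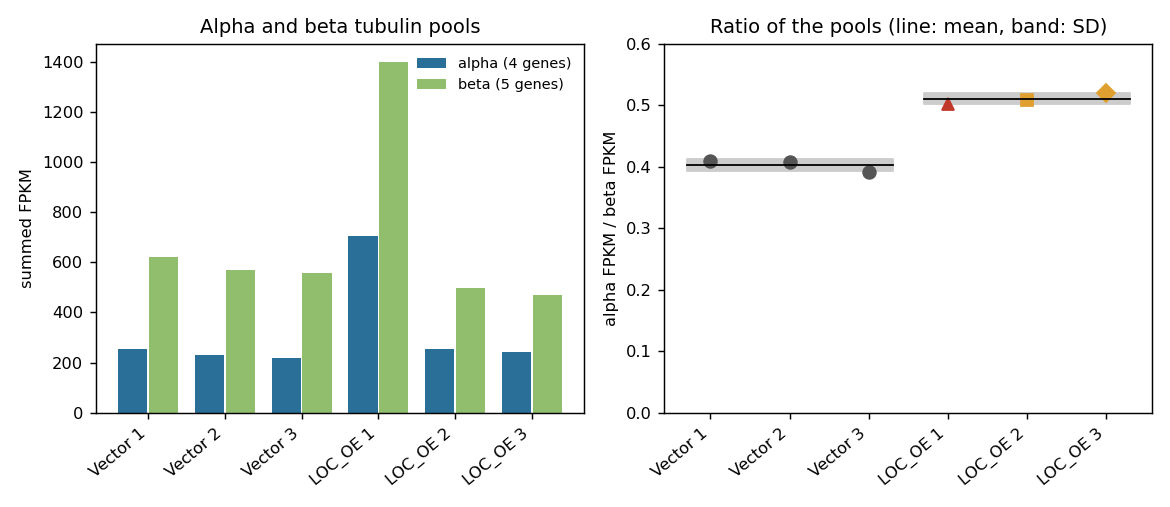
Left, summed FPKM of the alpha and beta tubulin genes in each library as bars from 0. Right, the ratio of the alpha to the beta sum in each library, with the mean as a line and the SD as a grey band for each group of 3 libraries, where the Vector points lie between 0.392 and 0.410 and the LOC_OE points between 0.503 and 0.521.

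The share of each gene in its pool is given as a description, since the members were chosen with these values known. A share can fall without a fall in FPKM, when other genes of the pool rise. By FPKM, 45.3% of all tested genes did not overlap between the groups, and no such background was computed for shares. TUBA1B held 53.9% ± 0.649 of the alpha pool in Vector and 59.5%, 55.4% and 54.3% in LOC_OE. TUBA1C held 29.1% ± 0.867 in Vector and 32.3%, 31.3% and 31.9% in LOC_OE, above the Vector libraries in each case. TUBA1A went the other way, from 11.7% ± 0.327 to 3.93%, 7.95% and 9.10%, all below the Vector libraries. TUBA4A took 5.36% ± 0.228 in Vector and 4.21% to 5.36% in LOC_OE.
In the beta pool TUBB4B held 59.0% ± 0.553 in Vector and 64.9%, 60.0% and 57.5% in LOC_OE. TUBB held 39.0% ± 0.542 in Vector and 34.1%, 38.8% and 41.3% in LOC_OE. For both of these abundant isotypes the LOC_OE libraries lay on both sides of the Vector libraries. The minor isotypes had lower shares in every LOC_OE library, although the FPKM of TUBB2A was highest in LOC_OE replicate 1. TUBB2A went from 1.499% ± 0.200 to 0.870%, 0.978% and 0.917%, TUBB6 from 0.381% ± 0.0390 to 0.0574%, 0.158% and 0.289%, and TUBB3 from 0.103% ± 0.0129 to 0.0282%, 0.0847% and 0.0623% (all mean ± SD, n = 3 Vector libraries).
Neuronal markers were examined because TUBB3, TUBB2A and TUBA1A are prominent in neurons. SNAP25, ELAVL4, DCX, NEFL and STMN2 were listed at 0 in every library, and RBFOX3 and ELAVL3 did not pass the filter. SYP, which encodes the synaptic vesicle protein synaptophysin, fell from 3.03 ± 0.302 to 0.395 ± 0.155 FPKM (SD, n = 3 libraries each). On the log2 scale this was −1.53 ± 0.12 (SE), at a limma adjusted p of 0.00307. SYP passed the filter through the Vector libraries, in which it was higher, and its LOC_OE mean was below 0.5 FPKM. Its p-value is therefore given as a description. The 8 markers summed to 2.82 to 3.47 FPKM in Vector and 0.349 to 0.625 FPKM in LOC_OE, almost all of it SYP, and the part of SYP-expressing cells in the levels of TUBB3 and TUBB6 was not tested. Epithelial markers summed to 39.4 to 41.5 FPKM in Vector and to 89.6, 48.9 and 48.4 FPKM in LOC_OE. Most of the excess in replicate 1 was KRT18, an epithelial keratin gene at 67.5, 25.3 and 25.1 FPKM in LOC_OE and 18.1 to 19.8 FPKM in Vector, and its part in the tubulin levels was not tested. Of 5 markers of other cell types, ACTA2, the smooth muscle actin gene, passed the filter and fell from 3.02 ± 0.431 to 1.11 ± 0.0225 FPKM (SD, n = 3 libraries each). On the log2 scale this was −0.92 ± 0.11 (SE), at a limma adjusted p of 0.00652. These 5 markers summed to 2.68 to 3.46 FPKM in Vector and to 1.12 to 1.25 FPKM in LOC_OE, and their part in the levels of TUBB3 and TUBB6 was not tested.

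The genes whose profile over the 6 libraries lay closest to that of the summed alpha and beta FPKM were sought among 4950 other genes with a mean of at least 10 FPKM. Closeness was the root mean square difference of log2(FPKM + 1), each profile centred on its own mean, and its median over all these genes was 0.475. The summed FPKM was 877, 801 and 774 in Vector and 2105, 752 and 712.5 in LOC_OE. Closeness to it therefore rests mostly on the height of the single library LOC_OE replicate 1. HSPA8, the constitutive cytosolic HSP70 chaperone, was closest at 0.0518, with 232, 195 and 195 FPKM in Vector and 551, 189 and 193 FPKM in LOC_OE. It was followed by CDC20, an activator of the anaphase-promoting complex (0.0790), DNAJB1, an HSP40 co-chaperone (0.0871), DDX39A, an RNA helicase (0.0911), and SSNA1, a microtubule-associated protein of centrosomes and cilia (0.0961). Of the members, TUBB4B was at 0.0645 and TUBB at 0.107, and both are part of the sum. TUBB3 and TUBB6 were farthest, at 0.575 and 0.792, and with TUBA1A at 0.487 lay beyond the median gene.

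The other genes of the microtubule system were read from 7 lists, which held no member and were written with earlier results of these data known. Of 133 genes, 116 were tested, of which 16 had an adjusted p-value under 0.05 in limma and were higher in LOC_OE, and 8 were lower. Among all tested genes the shares were 10.7% higher and 9.74% lower (20.4% in either direction). With the same sum of FPKM in each library, 3 of the 16 higher genes and all 8 lower genes remained past this threshold. With a fold change of at least 1.5 on the log2(FPKM + 1) scale, 2 were higher and 2 were lower, against 4.63% and 5.58% of all tested genes (10.2% in either direction). The median log2 fold change was 0.06. Of these 116 genes, 1 was at least 2-fold higher in LOC_OE replicate 1 than in replicates 2 and 3, the chaperonin gene TCP1.
The 24 calls were sensitive to single libraries of both groups. All 24 kept their direction in every fit that left out a library. Leaving out a library cannot reverse the direction of a gene whose groups do not overlap, so this is no measure of stability. Without Vector replicates 1, 2 and 3 there remained 3, 0 and 1 of them, without LOC_OE replicates 2 and 3 there remained 7 and 9, and without LOC_OE replicate 1 all 24.

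Of the 13 other tubulin genes, 5 passed the filter, and 2 fell, against 9.74% of all tested genes. TUBAL3, an alpha-tubulin-like gene (chromosome 10 from 5393098 to 5404830, minus strand), had 9.04, 8.66 and 8.07 FPKM in Vector and 1.74, 3.64 and 2.91 FPKM in LOC_OE. The log2 fold change of TUBAL3 was −1.38 ± 0.19 (SE), at a limma adjusted p of 0.00877, and without Vector replicate 2 the adjusted p was 0.0546. The groups were far apart, and replicate 1 was the lowest library. TUBG2, the second gamma-tubulin gene, lies near TUBG1 on chromosome 17 (42659305 to 42667006, plus strand). It had 12.1, 12.5 and 11.2 FPKM in Vector and 7.28, 7.96 and 8.59 FPKM in LOC_OE. Its difference on the log2 scale was −0.54 ± 0.090 (SE), at a limma adjusted p of 0.0132, and it lost its call when any 1 of the 3 Vector libraries was left out, with an adjusted p of up to 0.0758. In contrast to TUBG1, TUBG2 had its lowest value in LOC_OE replicate 1.
TUBD1 and TUBE1, the delta- and epsilon-tubulin genes of centrioles, had log2 fold changes of 0.18 and 0.10, and the alpha gene TUBA3D had −0.12, none past the threshold. TUBE1 had 3.84, 3.76 and 3.89 FPKM in Vector and 2.72, 5.29 and 4.95 FPKM in LOC_OE, so replicate 1 was its lowest library. Without LOC_OE replicate 1 its log2 fold change was 0.34, at a limma adjusted p of 0.0105. TUBA3C was listed at 0 in every library, and TUBA3E, TUBA4B, TUBA8, TUBB1, TUBB2B, TUBB4A and TUBB8 did not pass the filter, with at most 0.797 FPKM in any library.

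The list of mRNA autoregulation held 5 genes, of which 1 rose, against 10.7% of all tested genes. CNOT1, the scaffold of the CCR4-NOT complex, rose from 27.8 ± 0.166 to 39.1 ± 2.60 FPKM (SD, n = 3 libraries each). The rise was 0.48 ± 0.080 (SE) in log2, at a limma adjusted p of 0.0135. CNOT1 lost its call when any 1 of the 3 Vector libraries was left out, with a limma adjusted p of up to 0.0786. Its log2 fold change was 0.22 with the same sum of FPKM and 0.24 with quantile normalization, neither past the threshold. The rise of CNOT1 thus depended on the scaling. TTC5, the reader of the first codons shown above, had 2.91, 2.87 and 2.85 FPKM in Vector and 3.06, 3.77 and 3.81 FPKM in LOC_OE. The difference in log2 was 0.23, which did not pass (limma adjusted p of 0.144). The adapter SCAPER had a log2 fold change of −0.09, and in LOC_OE its FPKM was 0.952, 1.53 and 1.65, against 1.37 to 1.64 in Vector. CNOT10 and CNOT11, which form the CCR4-NOT module that docks SCAPER, had 0.02 and 0.26, neither past the threshold.

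Tubulin chains are folded by prefoldin and the chaperonin CCT and joined into dimers by the cofactors TBCA to TBCE. Of 21 folding genes, 4 rose and 2 fell, against 10.7% and 9.74% of all tested genes. PFDN4, a prefoldin subunit, had a log2 fold change of 0.50 (SE 0.092), TBCA, which binds beta-tubulin, 0.47 (0.088), and TBCE, which binds alpha-tubulin, 0.42 (0.11). TBCD also rose, at 0.41 (0.10), and is named after its value was seen. The genes that fell were PFDN6, another prefoldin subunit, at −0.74 (0.20), and TBCC, which acts at the last step of dimer release, at −0.47 (0.12). The adjusted p-values from limma were between 0.0163 and 0.0456. With the same sum of FPKM in each library, 1 of the 4 genes that rose and 2 of the 2 that fell remained past the threshold.
The 8 chaperonin subunit genes had log2 fold changes of 0.16 to 0.67, none past the threshold, and are named after their values were seen. TCP1 had 57.0, 48.8 and 51.0 FPKM in Vector and 109, 50.03 and 49.6 FPKM in LOC_OE, while CCT2 had 90.8, 82.6 and 82.1 FPKM in Vector and 199, 110.2 and 114 FPKM in LOC_OE. Replicate 1 was the highest library for both, and for CCT2 replicates 2 and 3 were also above all control libraries.

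Of 19 tested genes of the gamma-tubulin complex and augmin, which start new microtubules, 5 rose and 0 fell at an adjusted p under 0.05 from limma. Among all tested genes the shares were 10.7% and 9.74%. HAUS3 and HAUS6, subunits of augmin, had log2 fold changes of 0.51 (standard error 0.13) and 0.47 (0.11), and TUBGCP3, a subunit of the gamma-tubulin complex, had 0.46 (0.075). PCNT, which tethers the complex at centrosomes, had 0.42 (0.097), and NEDD1, its targeting subunit, had 0.40 (0.081), both named after their values were seen. TUBGCP3 was at 5.73, 5.17 and 5.38 FPKM in Vector and at 7.99, 7.77 and 7.83 FPKM in LOC_OE, so its LOC_OE libraries lay close together. The adjusted p-values from limma of these 5 genes were between 0.0120 and 0.0403. With the same sum of FPKM in each library 0 of the 5 passed, at log2 fold changes of 0.16 to 0.31.
Of 17 tested genes of tubulin modification, TTL, the ligase that puts back the last tyrosine, rose by 0.26 in log2, at a limma adjusted p of 0.0453. It went from 6.17 ± 0.0768 to 7.58 ± 0.181 FPKM (SD, n = 3 libraries each). Under equal FPKM totals the log2 fold change of TTL was 0.032, and TTL was not past the threshold. Of 10 changes of the processing, 4 left TTL past the threshold, as did 1 of the 6 fits without a library. The rise of TTL thus depended on the scaling. SIRT2, a tubulin deacetylase, fell from 10.7 ± 0.510 to 7.94 ± 0.669 FPKM (SD, n = 3 libraries each), a log2 difference of −0.39 at a limma adjusted p of 0.0277. The remaining genes of this list were not past the threshold.
Of 23 tested genes of microtubule stability and severing, 4 rose and 1 fell, against 10.7% and 9.74% of all tested genes. STMN1, or stathmin, which binds free tubulin dimers and destabilizes microtubules, rose from 36.4 ± 2.54 to 56.1 ± 4.91 FPKM (SD, n = 3 libraries each), or by 0.61 ± 0.099 (SE) in log2, at a limma adjusted p of 0.0122. Its relative STMN3 rose by 0.65 ± 0.15 (SE) in log2, at a limma adjusted p of 0.0299. CAMSAP3, which holds minus ends of microtubules, fell by 0.58 on the log2 scale (SE 0.14, limma adjusted p of 0.0313), while its relative CAMSAP2, named after its value was seen, rose by 0.44. Rescaling to the same sum of FPKM kept these directions, and left 2 of the 4 genes that rose and the 1 that fell past the threshold.
Of 26 tested genes of interphase motors, DCTN6 of the dynactin complex rose by 0.42 on the log2 scale, and the kinesin genes KLC1 and KIF16B fell by 0.40 and 0.44 (adjusted p from limma of 0.0356, 0.0224 and 0.0227). With the same sum of FPKM DCTN6 was not past the threshold, while KLC1 and KIF16B were. The medians of the lists lay between −0.12 for other tubulin genes and 0.32 for folding genes.

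**Figure D5:**
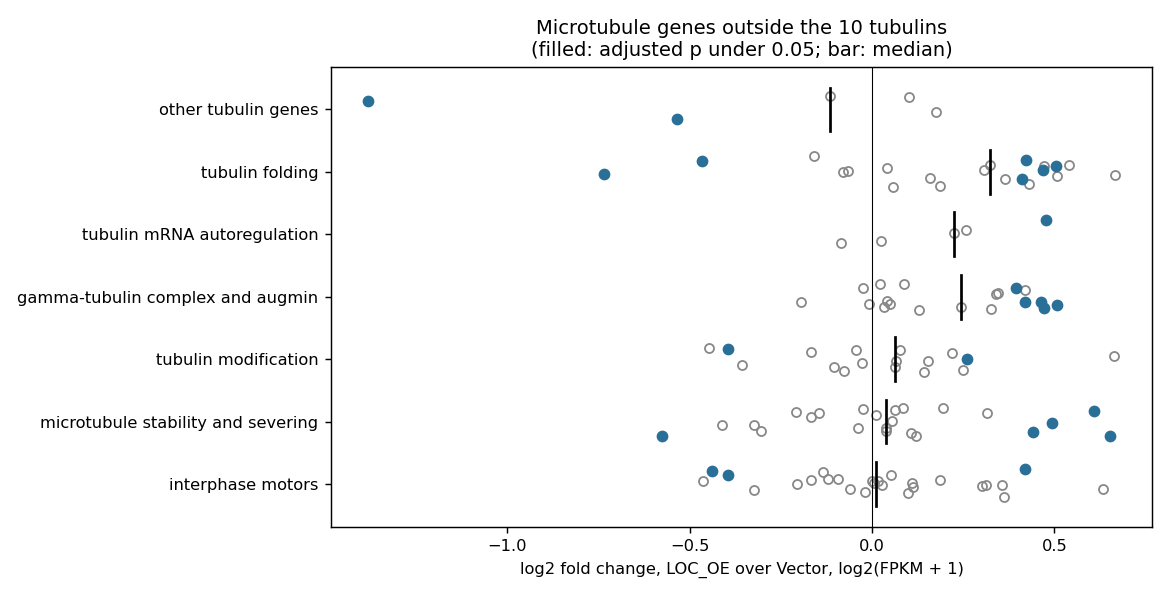
Log2 fold change of LOC_OE over Vector on the log2(FPKM + 1) scale for each tested gene of the 7 microtubule lists, with vertical jitter only to separate points, filled points for an adjusted p under 0.05 from limma and a bar at the median of each list. Filled points lie on both sides of 0, with TUBAL3 farthest to the left at −1.38 and STMN3 farthest to the right at 0.65.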

How the data were processed

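Per the study's methods, Trizol RNA was converted with the NEBNext Ultra kit into libraries for paired-end sequencing (Illumina NovaSeq). The authors deposited FPKM of 58735 genes in 6 libraries. The submitters' processing notes name HISAT2 2.0.4, StringTie 1.3.0 and hg38, while the annotation, the counting of fragments and its strand setting are not given in the sources used here. All gene identifiers matched GENCODE version 29. FPKM times exon length gave whole reads for 100% of the values (tolerance 0.02), and the totals per library are in the text. Read numbers cover counting error only.

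The 10 members and all gene lists were chosen with earlier results of these data known. Genes that reached 0.5 FPKM in 3 or more libraries were kept, and log2(FPKM + 1) was fitted with limma 3.58.1 in R 4.3.3 with a variance trend and Benjamini-Hochberg adjustment over 16061 genes, and the steps were tested on simulated data. Calls used an adjusted p-value under 0.05, with or without a fold change of at least 1.5, a threshold of the study. Members were part of the fit, but their fold changes and standard errors are given as a description, without p-values or calls, and the pools had no test. Closeness of profiles, coding identity and shared stretches of sequence were computed in Python 3.11.15, and figures were drawn with matplotlib 3.10.9.

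Named are the members, all other tubulin and autoregulation genes, up to 3 genes of each other list with the largest increase and up to 3 with the largest decrease past the adjusted p threshold, the 5 closest profiles, markers, LOC101927668, and pseudogenes with a mean FPKM of at least 1. Genes named beyond this rule are marked as such, and 1 gene and 1 sequence that belong here are not reported. The alternatives were a pseudocount of 0.1, 2 other filters, 3 other scalings, array weights, no variance trend, a replicate block, the omission of each library, other call thresholds, the log2 ratio of mean FPKM for the members, pseudogenes added to the pools and, chosen after seeing the data, limma voom on the recovered reads. Protein sequences were not analysed here.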

Additional observations from a re-analysis of the deposited data

How the results depend on the processing

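All 10 tubulin genes rest on 3 libraries a group, and TUBB3 and TUBB6 on 19 to 183 reads a library. Their fold changes held their sign in all alternatives that gave a value, except TUBA4A without LOC_OE replicate 1, TUBB and TUBG1 without LOC_OE replicate 1, with the same sum of FPKM, with quantile normalization and with array weights, and TUBB4B without LOC_OE replicate 1, with quantile normalization and with array weights. Their lowest and highest log2 fold changes were −0.23 and 0.42 for TUBB, −0.27 and 0.43 for TUBG1, −0.27 and 0.60 for TUBB4B, and −0.01 and 0.64 for TUBA4A. TUBB3 gave no value where genes needed a mean of 1 FPKM. Of the fold changes of single members, 160 moved by no more than the SD of the gene's 3 LOC_OE libraries and 9 by more. Leaving out 1 LOC_OE library cannot move a value beyond that SD, which LOC_OE replicate 1 widens for most members. The 160 include all the changes of sign above and are therefore no measure of stability. The log2 difference of the alpha sum was 0.77 with all libraries, 0.08 without LOC_OE replicate 1 and 0.46 with the same sum of FPKM, that of the beta sum was 0.44, −0.27 and 0.12, and that of their ratio was 0.34, 0.35 and 0.34. With pseudogenes added the ratio was 0.399 in Vector and 0.506 in LOC_OE.

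Of all genes, 743 were called higher and 896 lower at an adjusted p under 0.05 with a 1.5-fold change or more. Leaving out a library gave 144 to 747 higher and 227 to 938 lower, with the lowest counts without Vector replicate 2. The same sum of FPKM gave 261 higher and 1787 lower, limma voom gave 1705 lower, and dropping the fold threshold gave 1712 higher and 1565 lower. In the 7 microtubule lists 2 genes were called higher and 2 lower, and leaving out a library gave 0 to 2 higher and 0 to 3 lower. Higher calls in the lists were 4 with a pseudocount of 0.1, 1 with no filter on low FPKM, 0 with the same sum of FPKM, 0 with quantile normalization, 0 with array weights, 6 with limma voom, 16 with no fold threshold and 4 with unadjusted p. Lower calls were 1 with no filter, 9 with the same sum of FPKM, 5 with quantile normalization, 1 with no variance trend, 6 with limma voom and 8 with no fold threshold. Of the 24 list genes past the adjusted p threshold, 12 remained past it with no filter, 11 with the same sum of FPKM (3 of 16 higher and 8 of 8 lower), 21 with quantile normalization, 21 with no variance trend and 21 with limma voom, and all 24 kept their direction in each. The causes were not tested.

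The replicate numbers gave at most a weak pairing of the libraries. Deviations of same-numbered libraries from their group means correlated at 0.111, −0.0338 and 0.116. Vector replicates 1 and 3 correlated best with the LOC_OE library of their own number. Vector replicate 2 correlated best with LOC_OE replicate 3, at only 0.0148. With a replicate block, 696 genes were called higher and 739 lower, the lists had 1 lower call, and 15 of the 24 list genes remained past the adjusted p threshold.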

Other observations

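The annotation held 37 alpha- and beta-tubulin pseudogenes, of which 27 were at 0 in every library and 2 had a mean FPKM of at least 1. TUBBP1, a transcribed copy of TUBB, had 2.01, 1.90 and 1.24 FPKM in Vector and 4.55, 1.97 and 2.44 FPKM in LOC_OE, from 38 to 120 reads a library. Like TUBB, it was highest in LOC_OE replicate 1. Of the stretches of 150 bases in TUBBP1 transcripts, 4.21% also occur in TUBB. Whether reads of TUBB were counted on TUBBP1 was not tested. TUBB8P1 did not share this order, with 3.30, 3.63 and 4.66 FPKM in Vector and 2.41, 3.52 and 1.87 FPKM in LOC_OE, from 20 to 63 reads a library.

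Promoters of 300 bases (250 before and 50 after the start of each gene, RefSeq on GRCh38) were searched on both strands for 3 short motifs, and all 10 members had an entry. CCAAT, the core of the box bound by NF-Y, was present in 7 members, namely TUBA1A, TUBA1C, TUBB, TUBB3, TUBB4B, TUBB6 and TUBG1, against 34.6% of 35116 promoters. GGGCGG, the core of the GC box, was present in 8, all but TUBA1A and TUBB4B, against 45.0%. TATAAA was present only in TUBB2A, against 11.5%. The 7 members that were highest in LOC_OE replicate 1 were mixed in this respect, with CCAAT in TUBA1C, TUBB, TUBB4B and TUBG1 and not in TUBA1B, TUBA4A and TUBB2A.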
